A study of Mus musculus with 18 samples.

Results

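The course of fetal thymocyte development from the early thymic progenitor (ETP) to the DN3 stage was followed on 6 microarrays, the 3 arrays of fetal DN3 cells and the 3 arrays of fetal ETPs, out of 18 arrays in the series. The members were all arrays that the sample titles name as Fetal DN3 or Fetal ETP, and the difference DN3 minus ETP was taken over all 22626 probe sets. The 3 arrays of fetal DN2 cells, which lie between both stages, served only to place a change at the step from ETP to DN2 or at the step from DN2 to DN3. The 6 arrays of adult ETPs and adult DN3 cells were used to test whether a fetal change differed from the adult one, and all 18 arrays entered the estimate of the spread.

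All cells came from C57BL/6 mice without an engineered allele or treatment, the fetal cells from thymi of embryonic day E14.5 by the labels (the study's methods give the day after) and the adult cells from females of 4 to 6 weeks. Lineage-positive cells were depleted with antibodies, among them those to CD8α, CD3ε, NK1.1, CD11b and TER119. ETPs were then sorted as CD44+ CD25- c-Kit+ cells, DN2 cells as CD44+ CD25+ cells, without a gate on c-Kit, and DN3 cells as CD44- CD25+ cells. RNA of 80000 cells per sample was amplified in 2 cycles and hybridized to an Affymetrix mouse genome array, with the cells of 2 sorts pooled for each fetal array. The labels call the 3 arrays of a group biological replicates and the study's methods call them technical, so that the p-values measure the spread between arrays, which may be technical.

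In the thymus, progenitors that arrive from the fetal liver or the bone marrow give up their alternative fates stepwise under Notch signals. ETPs can still form myeloid and natural killer cells, DN2 cells turn on T cell genes, and DN3 cells rearrange the T cell receptor β locus and test its product as the pre-T cell receptor, which pairs the β chain with an invariant chain and the CD3 signalling chains. The E proteins, basic helix-loop-helix factors that bind the E-box, are known activators of many of these genes.

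The deposited values are log2 values in which each probe set was centred on its median over the 18 arrays. A value therefore says how far an array lay from the middle of the series for that probe set, and not how strongly the gene was expressed. The array medians lay between -0.05 and 0.05 log2 in the 9 fetal arrays. Changes are given as log2 differences with the standard error of the limma fit (n = 3 arrays per group), and a change was called at 1.8-fold or more with a Benjamini-Hochberg adjusted p below 0.05. Genes with several probe sets were represented by 1 probe set.

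From fetal ETP to fetal DN3, 609 probe sets rose (2.69% of all tested) and 624 fell (2.76%). On the level of genes, 403 of 12393 rose (3.25%) and 388 fell (3.13%). The median change among them was 2.14 log2 for the rises and -2.34 log2 for the falls, and 78 genes rose and 89 fell by at least 4 log2. In bulk samples, fewer cells of a type and less RNA per cell cannot be told apart. The array number was shared between the stages, and with this number as a block in a fit of the 9 fetal arrays 808 probe sets rose and 971 fell. In 54 of the 388 genes that fell, adult DN3 array 3 stood more than 2 log2 above both other adult DN3 arrays. Neither of the other arrays did so in any of these genes. Genes outside the 388 were not counted, so the pattern of array 3 is not shown to be particular to the falls. *Cd44* was at -0.86 log2 in that array against -7.97 and -7.84 log2, *Cd34* at -0.90 against -7.19 and -7.58 log2, *Fasl* at -0.57 against -4.99 and -4.90 log2 and *Bex6* at -0.16 against -6.79 and -4.49 log2. As the arrays share the estimate of the spread, the SE of the fetal fall was smaller without this array, at 0.39 in place of 1.36 log2 for *Cd44*, 0.33 in place of 1.24 for *Cd34*, 0.42 in place of 0.90 for *Fasl* and 0.56 in place of 1.15 for *Bex6*. Without it 600 probe sets rose and 653 fell.

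The genes that define the sort moved with the gates. *Cd44*, an adhesion receptor, stood at 1.97, 1.72 and 2.17 log2 in fetal ETPs and at -8.38, -6.91 and -6.89 log2 in fetal DN3 cells. *Kit*, the receptor of stem cell factor, went from 1.59, 1.29 and 0.72 log2 to -1.79, -1.91 and -2.44 log2. *Il2ra*, which encodes CD25, went from -2.85, -4.22 and -5.98 log2 to 0.75, 0.45 and -0.17 log2. The arrays of both stages did not overlap for any of the 3 genes, which held for all 403 genes that rose and all 388 that fell. As the cells were chosen by the proteins of these 3 genes, their changes (-9.35 ± 1.36, -3.24 ± 0.66 and 4.69 ± 0.77 log2) describe the gates.

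The largest rises included the pre-T cell receptor. *Ptcra*, the invariant pre-Tα chain, stood at -4.28, -2.35 and -4.30 log2 in fetal ETPs, at 2.72, 0.34 and 0.92 log2 in DN2 cells and at 4.75, 4.98 and 4.58 log2 in DN3 cells. It rose by 8.42 ± 0.67 log2 (adjusted p = 3.21e-06). Of the 5 genes of the pre-T cell receptor and CD3 chains, 4 rose and none fell, against 3.25% of all genes that rose, and the median change of the 5 was 5.93 log2, against -0.05 log2 over all genes. The other risers were the CD3 chains *Cd3d* (8.08 ± 0.81 log2), *Cd3e* (4.81 ± 0.45 log2) and *Cd247* (5.93 ± 0.45 log2), the last of which was called on 2 of its 4 probe sets. *Cd3g* lay between -2.33 and -1.55 log2 in ETPs and between 0.21 and 0.59 log2 in DN3 cells, without overlap, but missed the threshold (2.40 ± 0.77 log2, adjusted p = 0.101). With the array number as a block in the 9 fetal arrays all 5 were called.

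As 4 of these 5 genes rose, the 250 bases before their transcription starts (RefSeq, GRCm38.p6) were searched on both strands for 2 E-box forms, CAGCTG, which reads the same on both strands, and CACCTG, which reads CAGGTG on the other. Either form was present in 4 of the 5 windows, against 27.7% of 32851 promoter windows of the same length. These 4 are not the same as the 4 genes that rose: *Cd3g*, which was not called, had a match, and *Cd3e*, which rose, had none. The windows with a match are shown 5′ to 3′ with the matching letters in capitals.

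Ptcra (chr17:46763713-46763962, minus strand): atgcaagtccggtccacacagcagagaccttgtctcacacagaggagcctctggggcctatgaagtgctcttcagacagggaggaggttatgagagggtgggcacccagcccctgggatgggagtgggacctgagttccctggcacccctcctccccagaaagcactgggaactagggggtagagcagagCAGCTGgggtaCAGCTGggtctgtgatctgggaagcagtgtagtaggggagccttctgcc

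Cd3d (chr9:44981536-44981785, plus strand): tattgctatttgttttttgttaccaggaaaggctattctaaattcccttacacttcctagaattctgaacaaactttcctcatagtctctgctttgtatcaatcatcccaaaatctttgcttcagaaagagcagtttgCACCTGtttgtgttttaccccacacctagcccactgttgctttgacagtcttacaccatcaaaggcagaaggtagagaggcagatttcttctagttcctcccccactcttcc

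Cd3g (chr9:44980432-44980681, minus strand): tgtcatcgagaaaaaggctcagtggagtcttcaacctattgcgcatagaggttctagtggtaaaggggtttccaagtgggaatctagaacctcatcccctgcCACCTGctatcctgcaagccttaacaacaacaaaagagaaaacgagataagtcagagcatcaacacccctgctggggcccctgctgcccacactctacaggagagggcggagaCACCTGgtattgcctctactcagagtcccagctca

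Cd247 (chr1:165788431-165788680, plus strand): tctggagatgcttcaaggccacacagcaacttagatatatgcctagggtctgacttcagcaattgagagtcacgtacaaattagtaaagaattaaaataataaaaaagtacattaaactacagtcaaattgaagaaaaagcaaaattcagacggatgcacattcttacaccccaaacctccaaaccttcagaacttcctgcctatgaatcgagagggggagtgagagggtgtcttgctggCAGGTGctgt

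*Ptcra* held CAGCTG at 60 and again at 49 bases before the start, counted from the first letter of the match. *Cd3d* and *Cd3g*, which are neighbours transcribed away from each other on chromosome 9, held CACCTG at 112 bases and at 148 and 35 bases. *Cd247* held CAGGTG at 10 bases, and the window of *Cd3e* held neither form. A match of 6 letters is a description of the sequence and not evidence of binding.

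**Figure D1:**
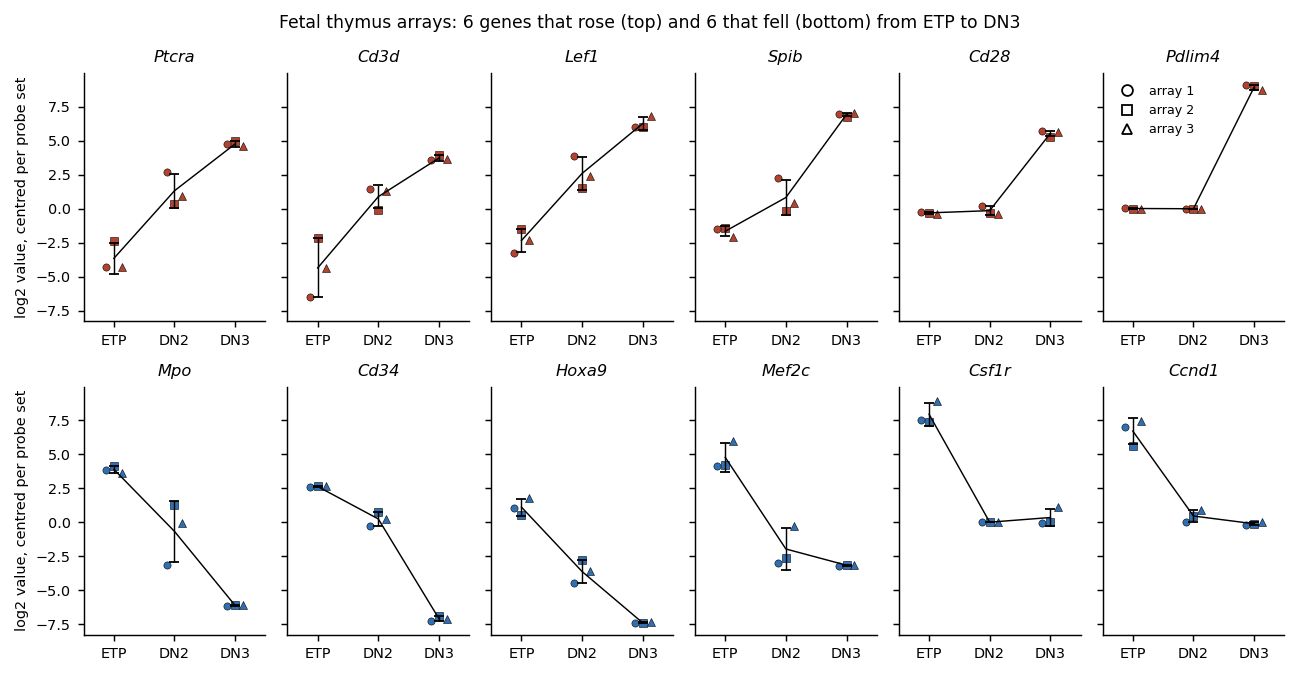
Centred log2 values (vertical axis) of 12 genes in the 3 arrays each of fetal ETP, DN2 and DN3 cells, with the mean and SD as lines and bars and the array number as the symbol. *Cd28* and *Pdlim4* stayed near 0 log2 at ETP and DN2 and rose at DN3, while *Csf1r* and *Ccnd1* were near their DN3 values at DN2.

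Of 20 measured genes of T cell receptor signalling 8 rose (40.0%, against 3.25% of all genes) and none fell. The median change over the list was 0.35 log2. *Sh2d1a*, an adaptor of SLAM family receptors, went from -4.80, -4.64 and -4.82 log2 in ETPs to 3.12, 3.52 and 2.74 log2 in DN3 cells, a rise of 7.88 ± 0.65 log2 (adjusted p = 4.2e-06). *Zap70*, the kinase recruited to phosphorylated CD3 chains, rose by 4.56 ± 0.31 log2 on 1 of its 2 probe sets, *Dgka*, a diacylglycerol kinase, by 3.73 ± 0.35 log2 and *Grap2*, an adaptor of the LAT complex, by 3.07 ± 0.26 log2 on 1 of 2. Between 8 and 9 of the list rose in the limma alternatives, and 5 by an adjusted one-way test of the fetal DN3 and fetal ETP arrays alone.

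Of 9 measured genes of V(D)J recombination and end joining, 3 rose (33.3%, against 3.25% of all genes), with a list median of 0.25 log2. *Rag1* and *Rag2*, the recombinase, rose by 3.41 ± 0.43 and 2.40 ± 0.32 log2, and *Xrcc6*, the Ku70 end-joining factor, by 1.44 ± 0.29 log2 (adjusted p = 0.000174, 0.000258 and 0.00686). *Rag1* already stood at -1.56, -0.84 and -0.44 log2 in fetal ETPs, against a mean of -4.67 ± 0.66 log2 (SD, n = 3) in adult ETPs, and its fetal rise was smaller than the adult one (fetal minus adult -3.32 ± 0.61 log2, adjusted p = 0.00913, and up to 0.0623 over 17 alternatives, of which 2 lost the call). *Dntt*, the terminal transferase that adds nucleotides at junctions, lay between -5.75 and -5.58 log2 in all 9 fetal arrays and changed by -0.02 ± 0.16 log2 from ETP to DN3, while the adult means were 6.05 and 6.94 log2.

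Among 22 T lineage transcription factors 7 rose (31.8%, against 3.25% of all genes) and none fell, and the list median was 0.37 log2. *Lef1*, a partner of β-catenin, went from -3.23, -1.51 and -2.26 log2 to 6.00, 5.98 and 6.81 log2, a rise of 8.60 ± 0.59 log2 (adjusted p = 8.06e-07). *Spib*, an Ets family factor, went from -1.46, -1.42 and -2.07 log2 to between 6.77 and 7.03 log2 and rose by 8.58 ± 0.60 log2 (adjusted p = 8.25e-07). The arrays of both stages did not overlap for either gene, which held for all 403 genes that rose. *Ets1* rose by 4.43 ± 0.59 log2 on all 4 probe sets, and *Bcl11b*, a factor needed for T cell commitment, by 3.77 ± 0.49 log2. *Bcl11b* stood higher in fetal ETPs (-2.73 ± 0.55 log2, SD, n = 3) than in adult ETPs (-6.48 log2), and its fetal rise was smaller than the adult one (fetal minus adult -4.30 ± 0.69 log2, adjusted p = 0.0037). *Gata3*, which specifies T cell fate, did not pass, with 0.32, 0.13 and -0.71 log2 in ETPs and 0.23, 0.00 and -0.56 log2 in DN3 cells. *Runx1* (0.85 ± 0.44 log2) and *Myb* (0.57 ± 0.36 log2) did not pass either.

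Among the 7 E proteins and their Id inhibitors *Tcf12*, which encodes HEB, was called, with a rise of 2.25 ± 0.30 log2 (adjusted p = 0.000263). A single gene is 14.3% of this list, against 3.25% of all genes that rose. In 5 alternatives 1 more gene of the list fell, both fits with the array number as a block among them. *Id3*, an inhibitor of E proteins that acts downstream of receptor signals, stood at 0.01, -0.03 and -0.01 log2 in fetal ETPs and at 0.23, 0.97 and 0.01 log2 in fetal DN3 cells. In the adult course it rose by 5.54 log2, and the fetal minus adult change was -5.12 ± 0.42 log2 (adjusted p = 1.06e-05). *Id2* changed by -0.05 ± 0.26 log2 and *Tcf3*, which encodes E2A, by 0.31 ± 0.95 log2.

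Of the Notch pathway, 3 of 23 measured genes rose and none fell, with a list median of 0.03 log2, while 2 fell with the array number as a block in the 9 fetal arrays and 1 in these arrays without it. *Notch3*, a receptor, went from -0.02 to 0.00 log2 in ETPs to 3.18 to 3.83 log2 in DN3 cells (3.40 ± 0.67 log2, adjusted p = 0.00587). *Dtx1*, an E3 ligase induced by Notch, rose by 2.55 ± 0.52 log2 on its single probe set. *Heyl*, a repressor of the Hes family, passed narrowly (0.99 ± 0.26 log2, adjusted p = 0.041) and lost the call when any of 5 of the 6 arrays was left out. The receptor *Notch1* (1.30 ± 0.55 log2) and the target *Hes1* (1.20 ± 0.42 log2) were above their ETP values without passing.

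Surface genes that mark progression changed in both directions, with 5 rises (29.4%) and 2 falls (11.8%) among 17 measured. Over all genes 3.25% rose and 3.13% fell. *Cd28*, a costimulatory receptor, stood between -0.36 and -0.24 log2 in ETPs and between 5.30 and 5.69 log2 in DN3 cells. It rose by 5.84 ± 0.59 log2. *Cd2*, an adhesion receptor of T cells, went from 0.04, 0.01 and 0.02 log2 to 4.98, 5.43 and 5.75 log2. *Thy1* rose by 3.74 ± 0.68 log2. *Cd34*, the progenitor sialomucin, stood at 2.56, 2.65 and 2.64 log2 in ETPs and at -7.24, -6.90 and -7.14 log2 in DN3 cells, the second largest fall among all genes (-9.71 ± 1.24 log2, adjusted p = 0.000206).

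Of 28 measured adhesion genes 7 rose and 2 fell, with a list median of -0.05 log2, equal to that of all genes. *Dsc2*, a desmosomal cadherin, went from 0.24, 0.00 and 0.15 log2 in ETPs to 8.01, 7.15 and 8.08 log2 in DN3 cells on 1 of its 2 probe sets. *Nrp1*, a semaphorin receptor, rose by 7.03 ± 0.54 log2 on all 3 probe sets, and *Epcam*, an epithelial adhesion molecule also found on thymocytes, by 6.32 ± 0.60 log2. *Epcam* was also the single called gene among 14 measured for thymic stroma and endothelium, a list whose mean lay between -0.20 and -0.07 log2 in ETPs and between 0.15 and 0.19 log2 in DN3 cells. *Itgae*, the αE integrin that binds E-cadherin, rose by 4.28 ± 0.40 log2. Of 17 chemokine and homing receptors 1 rose (5.88%) and 2 fell (11.8%). *Ccr9*, a thymus homing receptor, rose by 3.12 ± 0.60 log2 on 2 of 3 probe sets, and *Cxcr6* fell by 2.73 ± 0.45 log2 on 1 of 2.

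**Figure D2:**
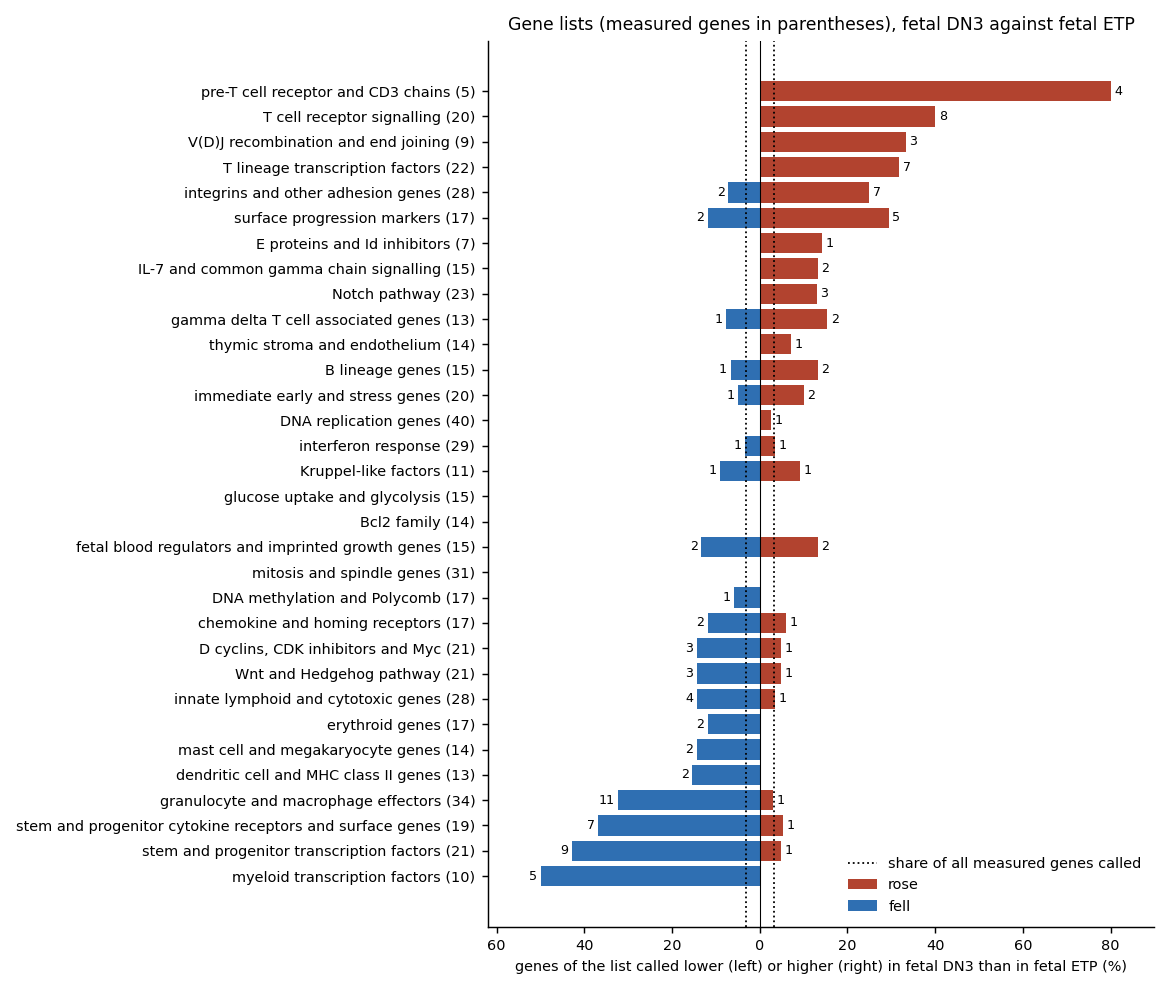
Share of the measured genes of each list called higher (right, red) or lower (left, blue) in fetal DN3 than in fetal ETP, with the number of genes at each bar, the measured genes in parentheses and the share of all genes as dotted lines. The lists of T cell genes lie to the right and the stem cell and myeloid lists to the left.

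Stem and progenitor transcription factors fell, with 9 falls and 1 rise among 21 measured, against 3.13% of all genes that fell, and a list median of -0.68 log2. *Hoxa9*, a homeobox factor of blood progenitors, went from 1.04, 0.50 and 1.76 log2 in ETPs to -7.45, -7.41 and -7.36 log2 in DN3 cells (-8.51 ± 1.32 log2, adjusted p = 0.00101) on 1 of its 2 probe sets. *Hhex* stood at 1.44, 1.25 and 1.68 log2 and then at -7.86, -5.76 and -5.92 log2. *Mef2c* fell by 7.93 ± 1.22 log2 on all 5 probe sets, and *Nfe2*, a factor of megakaryocytes and red cells, fell by 5.84 ± 0.77 log2. *Meis1*, a Hox cofactor, changed by -1.39 ± 0.32 log2 in the fetal course and by -6.85 log2 in the adult one (difference 5.46 ± 0.46 log2, adjusted p = 1.25e-05), and its fetal call was lost when any of 4 of the 6 arrays was left out. *Lyl1* spread from -5.71 to -2.79 log2 in DN3 cells and missed the threshold (-4.86 ± 1.56 log2, adjusted p = 0.101).

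The rise in this list was *Gata1*, which drives erythroid and megakaryocyte genes elsewhere. It stood at 0.04, 0.93 and 0.03 log2 in fetal ETPs, at 1.55, 1.30 and 1.09 log2 in DN2 cells and at 5.23, 4.75 and 4.13 log2 in DN3 cells. Every DN3 array was above every ETP and DN2 array, the rise was 4.37 ± 0.30 log2 (adjusted p = 7.18e-07), and the adult change was 0.36 log2 (difference 4.01 ± 0.42 log2, adjusted p = 0.0001). None of 17 measured erythroid genes rose with it in limma, also at an unadjusted p under 0.05. Of them 2 fell (11.8%, against 3.13% of all genes), *Car2* and *Ermap* (-6.65 ± 1.19 and -2.80 ± 0.42 log2). None of 14 mast cell and megakaryocyte genes rose by the same limits. *Hdc* and *Itga2b*, 14.3% of the list, fell (-5.85 ± 0.96 and -2.66 ± 0.48 log2). The mean over the erythroid list ranged from 0.44 to 1.45 log2 in the ETP arrays and from -0.23 to 0.60 log2 in the DN3 arrays. *Hbb-y*, the embryonic globin chain, followed the array number and not the stage, with -0.07 to 0.04 log2 in the arrays numbered 1 and 2.35 to 5.97 log2 in the others.

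Of 19 cytokine receptors and surface genes of stem and progenitor cells, 7 fell (36.8%) and 1 rose (5.26%), against 3.13% and 3.25% of all genes. The list median was -0.37 log2. *Csf1r*, the macrophage growth factor receptor, stood at 7.50, 7.39 and 8.90 log2 in ETPs and at -0.05, -0.02 and 1.08 log2 in DN3 cells (-7.59 ± 0.34 log2, adjusted p = 1.57e-08) on 2 of 3 probe sets. *Flt3*, the receptor of a progenitor growth factor, fell by 3.57 ± 0.56 log2 and *Procr*, the endothelial protein C receptor, fell by 3.46 ± 0.70 log2. *Flt3* stood at 3.27 to 3.71 log2 in fetal ETPs against a mean of 7.34 log2 in adult ETPs, and fell less in the fetal course by 3.95 ± 0.79 log2 (adjusted p = 0.0163, and up to 0.0815 over 17 alternatives, of which 1 lost the call).

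Nearly all called changes of myeloid genes were falls. *Mpo*, myeloperoxidase, had the largest fall of all genes, from 3.85, 4.15 and 3.64 log2 in ETPs to -6.18, -6.09 and -6.12 log2 in DN3 cells (-10.01 ± 1.39 log2, adjusted p = 0.000416). *Prtn3*, a granule protease, went from 6.27, 7.01 and 5.70 log2 to -0.08, -0.04 and -0.02 log2, a fall shared by *Tyrobp*, a signalling adaptor (-6.37 ± 0.68 log2), and by *Sirpa* on 1 of 3 probe sets (-5.54 ± 0.72 log2). Of 34 granulocyte and macrophage effectors 11 fell (32.4%, against 3.13% of all genes). The 1 that rose was *F13a1*, a coagulation factor subunit (3.36 ± 0.72 log2), and the list median was -0.19 log2. The mean of the whole list ranged from 0.80 to 1.11 log2 in the ETP arrays, from -0.33 to 0.21 log2 in the DN2 arrays and from -0.84 to -0.68 log2 in the DN3 arrays. Whether these genes came from the ETPs themselves or from myeloid cells in the ETP gate was not tested, and centred values do not show which of them were absent at DN3.

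Of 10 myeloid transcription factors 5 fell (list median -1.06 log2), and between 2 and 5 fell over the limma alternatives. *Spi1*, which encodes PU.1, stood at 3.17, 4.05 and 0.57 log2 in ETPs and at -1.57, -1.51 and -1.63 log2 in DN3 cells. The fall of 4.17 ± 0.98 log2 (adjusted p = 0.019) lost its call when any of 5 of the 6 arrays was left out (adjusted p up to 0.0889). *Irf8* (-3.36 ± 0.89 log2) and *Klf4* (-2.10 ± 0.57 log2), each on 1 of 2 probe sets, lost theirs with every single array left out, and *Cebpb* (-2.25 ± 0.46 log2, 1 of 2 probe sets) kept it.

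Of 28 genes of innate lymphoid and cytotoxic cells 4 fell (14.3%) and 1 rose (3.57%), against 3.13% and 3.25% of all genes. *Klrd1*, which encodes CD94, went from 7.63, 6.70 and 5.27 log2 in ETPs to between -0.09 and 0.01 log2 in DN3 cells. *Gzmb*, a granule protease, stood at 4.19, 4.95 and 4.33 log2 in ETPs and at 0.08, 0.49 and -0.08 log2 in DN3 cells. *Klrc1*, a partner of CD94, fell by 3.27 ± 0.75 log2, a call that was lost without any of 4 of the 6 arrays. *Fasl*, the death ligand, fell further than any of them, from 3.94, 3.81 and 4.05 log2 to -4.93, -4.90 and -4.88 log2 (-8.84 ± 0.90 log2, adjusted p = 2.56e-05). Of 13 dendritic cell and MHC class II genes 2 fell (15.4%), *Itgax*, the CD11c integrin (-3.36 ± 0.34 log2), and *Clec10a* (-2.32 ± 0.54 log2, lost without any of 4 arrays).

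Of the cell cycle genes few were called, and over all genes 3.25% rose and 3.13% fell. The counts for mitosis and DNA replication were near these shares and do not show that cycling was unchanged. None of 31 mitosis and spindle genes was called in the limma fit of all 18 arrays (at an unadjusted p under 0.05 and 1.8-fold 1 rose and 1 fell, and by the unadjusted one-way test of the fetal DN3 and ETP arrays 1 rose). Of 40 DNA replication genes *Tk1* was called there (0.85 ± 0.22 log2, adjusted p = 0.034, lost without any of 5 arrays). With the array number as a block in the 9 fetal arrays 1 mitosis gene fell and 3 DNA replication genes rose. *Mki67*, a marker of cycling cells, stood at 0.01, -0.49 and -0.40 log2 in ETPs and at 0.28, -0.01 and -0.31 log2 in DN3 cells, which overlap. Among 21 D cyclins, CDK inhibitors and Myc genes 3 fell (14.3%) and 1 rose (4.76%). *Ccnd1*, cyclin D1, fell by 6.81 ± 0.35 log2 on all 3 probe sets and *Mycn* fell by 4.24 ± 0.39 log2 on 1 of 3, while *Cdkn2c*, the p18 inhibitor, rose by 3.30 ± 0.41 log2. *Cdkn1a*, the p21 inhibitor, did not pass (-1.09 ± 0.41 log2) but rose by 3.84 log2 in the adult course (difference -4.94 ± 0.57 log2, adjusted p = 0.000253).

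In smaller groups few genes were called, and over all genes 3.25% rose and 3.13% fell. Of 15 genes of IL-7 and common γ chain signalling, *Il2ra*, whose rise describes the CD25 gates, and *Il7r* rose. The rise of *Il7r* was 1.55 ± 0.33 log2 (adjusted p = 0.0109, and 0.0517 with 1 array left out). Of 21 Wnt and Hedgehog genes 1 rose and 3 fell. *Axin2*, a target of β-catenin, rose by 1.64 ± 0.20 log2 on 1 of 2 probe sets and *Tcf7l2* fell by 3.57 ± 0.42 log2 on 2 of 4. Of 13 genes associated with γδ T cells 2 rose and 1 fell. *Gpr83*, an orphan receptor, rose by 7.69 ± 0.78 log2 and *Cd9*, a tetraspanin, fell by 4.37 ± 0.55 log2. *Trgv4*, a γ chain variable segment outside the lists and chosen after its values were seen, stood between 4.11 and 4.31 log2 in the DN3 arrays and between -0.13 and 0.09 log2 in the ETP arrays on 1 of 3 probe sets, which may share sequence with other segments. Of 15 fetal and imprinted growth genes 2 rose and 2 fell. *Igf2*, a fetal growth factor, rose by 5.46 ± 0.75 log2 and *Hmga2*, a chromatin protein of fetal stem cells, fell by 3.94 ± 0.28 log2. Of 29 interferon response genes 1 rose and 1 fell. The riser *Ifi204*, a cytosolic DNA sensor, went from -0.27, -0.45 and 0.49 log2 in ETPs to 8.32, 6.99 and 8.46 log2 in DN3 cells. In the limma fit of all 18 arrays no gene was called among 14 of the Bcl2 family or among 15 of glucose uptake and glycolysis (at an unadjusted p under 0.05 and 1.8-fold, 1 of the first rose, and 1 of the second rose and 2 fell). Of the Bcl2 family 2 rose with the array number as a block in the 9 fetal arrays, and 1 rose by the adjusted one-way test and when a gene's probe sets were averaged. Of the glycolysis genes 1 rose in the 9 fetal arrays alone, and 1 fell with such averages, without probe sets that span under 1 log2 and without fetal ETP array 2. Of 15 B lineage genes *Ighm* and *Blk*, a kinase, rose and *Btk*, a kinase of B and myeloid cells, fell by 4.72 ± 0.94 log2, and *Blk* (0.91 ± 0.20 log2) lost its call without any of 3 arrays. Of 17 DNA methylation and Polycomb genes *Dnmt3a*, a DNA methyltransferase, fell by 0.92 ± 0.17 log2 on 2 of 5 probe sets. Of 20 immediate early and stress genes 2 rose and 1 fell. *Gadd45g* rose by 2.73 ± 0.31 log2 and *Ier3* fell by 3.28 ± 0.64 log2, while *Fos* was low in all fetal arrays numbered 3 (-6.39 to -6.27 log2) and followed the array number.

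Several of the largest rises lay outside these groups. *Pdlim4*, which encodes a LIM domain protein of the actin cytoskeleton, went from 0.04, 0.01 and 0.02 log2 in ETPs to 9.08, 9.02 and 8.71 log2 in DN3 cells. *Fgfbp1*, which encodes a carrier of fibroblast growth factors, went from 0.04, 0.01 and 0.06 log2 to 8.93, 8.69 and 8.50 log2. *Cntnap2*, a neurexin family member, rose by 8.94 ± 0.63 log2 on 1 of 3 probe sets, the largest rise of all genes. *Morc1* (8.68 ± 0.76 log2), *Endou* (8.41 ± 0.95 log2), *Pld4* (8.25 ± 1.00 log2) and *Hdgfl3* (8.19 ± 0.38 log2, all 3 probe sets) completed the 10 largest rises with *Lef1*, *Spib* and *Ptcra*. Among the 10 largest falls were also *Cd244a*, a SLAM family receptor (-8.50 ± 1.10 log2), *Rai14* (-7.96 ± 0.78 log2, 1 of 2 probe sets) and *Bex6* (-7.91 ± 1.15 log2). Groups whose 3 arrays lay within 0.1 log2 of each other, such as the ETP arrays of *Pdlim4*, may be at the low end of what the array can measure, which centred values do not show.

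The DN2 arrays place these changes. A change was placed when the difference of both steps had an adjusted p under 0.05, which 0.71% of all genes met. Of the 403 genes that rose, 52 had the larger part of the rise at the step from DN2 to DN3 and 2 at the step from ETP to DN2. Of the 388 that fell, 16 had the larger part of the fall at the first step and 3 at the second. Most were not placed, 349 of the rises and 369 of the falls, which does not show that their steps were equal. For probe sets the split was 71 against 4 for the rises and 5 against 26 for the falls. The fall counts depended on the fit: in the 9 fetal arrays alone 29 falls were placed late and 25 early, and with the array number as a block 64 and 30.

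Several rises placed late were near the ETP level at DN2. Where the arrays of both stages lay within 0.1 log2 of each other, as for *Cd2*, they may be at the low end of the array. The share reached at DN2 then does not show when the gene began to change. *Cd2* stood at 0.02, -0.00 and -0.01 log2 in DN2 cells before the 4.98 to 5.75 log2 of DN3 cells (adjusted p of the step difference 1.41e-08). *Cd28* had reached 2.79% of its change at DN2 (adjusted p = 0.0271), and *Zap70* stood at -0.47, -1.12 and -0.32 log2 there and at 3.10 to 3.86 log2 in DN3 cells (adjusted p = 0.00631). *Pdlim4*, *Fgfbp1*, *Dsc2* and *Hdgfl3* were placed late too, with -0.200% to 7.29% reached. *Itgae* first went down, from 0.57 to 1.42 log2 in ETPs to -1.71 to 0.04 log2 in DN2 cells, and then up to 5.18 to 5.72 log2. *Ighm*, the immunoglobulin μ chain, which thymocytes transcribe without making the protein, stood near -2.13 log2 in ETPs, at -6.42, -6.45 and -6.46 log2 in DN2 cells and at -1.21, -1.26 and -0.99 log2 in DN3 cells. Its net rise was 0.98 ± 0.23 log2 on 2 of 11 probe sets, and the call was lost when any of 4 of the 6 arrays was left out. The rises placed early were *Insl5*, a relaxin family hormone, with 0.04, 0.63 and -0.08 log2 in ETPs, 3.30, 3.49 and 3.54 log2 in DN2 cells and 3.21, 3.96 and 3.54 log2 in DN3 cells, and *Plet1*, a surface protein, with 63.1% reached at DN2.

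The early falls named here had reached 79.9% to 105% of the change at DN2. For genes whose DN2 arrays lay within 0.1 log2 of each other, such as *Csf1r*, DN2 may be at the low end of the array. A further fall would then not be seen. *Csf1r* stood at 0.01, -0.01 and -0.02 log2 in DN2 cells (adjusted p = 5.73e-06), *Klrd1* at -0.01 to 0.00 log2 (adjusted p = 0.000319) and *Ccnd1* at 0.00, 0.44 and 0.90 log2 (adjusted p = 0.000266). *Lmo2*, a cofactor of stem cell transcription complexes, went from 4.58, 4.75 and 5.53 log2 in ETPs to between -0.08 and 0.03 log2 in DN2 cells. *Gcnt2*, a glycosyltransferase called on 1 of 7 probe sets, *Esam*, an endothelial adhesion molecule also found on stem cells, and *Itgax* were placed early with 98.7%, 79.9% and 98.7% of the fall reached. *Esam* was still at 1.17 log2 on average in DN2 cells, with array 1 at 0.02 log2, and at -0.06 log2 on average in DN3 cells. The late falls were *Ppic*, *Prom1* and *Epb41l4b*, which stood higher in DN2 cells than in ETPs on average (by 0.69, 0.66 and 0.53 log2) and fell below the ETP value at DN3.

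**Figure D3:**
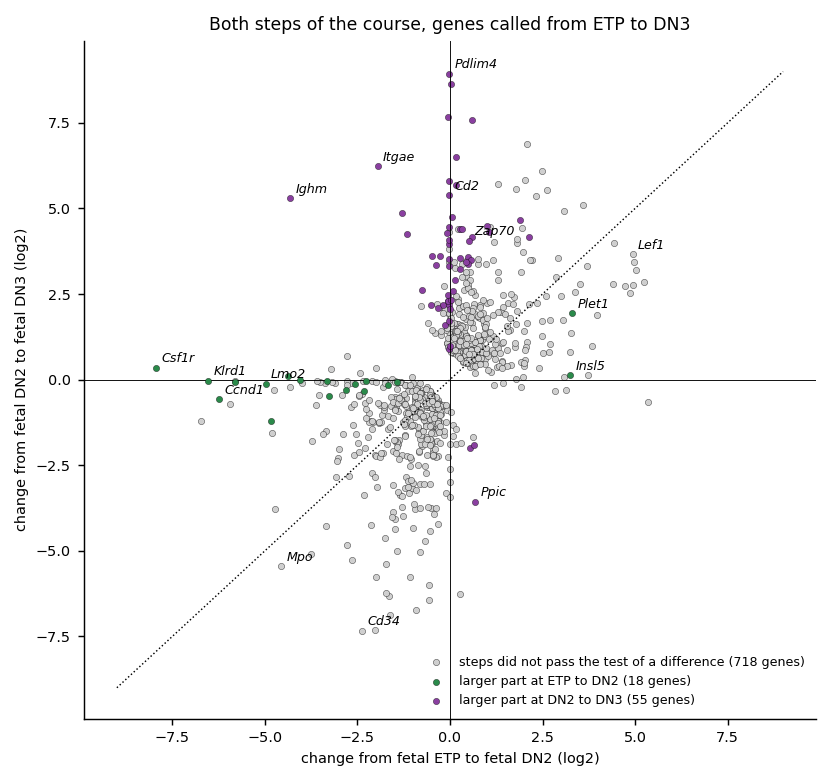
Change from fetal ETP to DN2 (horizontal, log2) and from DN2 to DN3 (vertical, log2) of the 791 genes called over the whole course. Genes with a called difference between steps are green (larger part first, 18 genes) or purple (larger part second, 55 genes), and the dotted line marks equal steps.

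Transcription factors and receptor chains that rose differed in the share reached at DN2. *Ptcra* had reached 59.1%, *Cd3d* 64.8%, *Lef1* 57.4%, *Bcl11b* 66.2% and *Rag2* 64.2% of the change at DN2, while *Spib* had reached 28.9% and *Ets1* 29.0%, and none of these 7 genes was placed. Over all genes that rose the median share reached at DN2 was 29.0% (interquartile range 9.52% to 48.7%), and over all that fell it was 43.9% (25.4% to 67.1%). By array number, which pairs the fetal arrays, the median share of the rises was 39.5%, 10.7% and 33.1% and that of the falls 48.0%, 36.8% and 47.5%. The share was larger for the falls in each of the 3 numbers, and number 2 was lowest in both. In this number *Spib*, *Lef1* and *Ptcra* stood at -0.18, 1.51 and 0.34 log2 at DN2, the lowest of the 3 DN2 arrays in each case, and *Mpo* at 1.23 log2, the highest. Without this DN2 array 43 risen probe sets were placed late and 4 early, and 0 fallen probe sets were placed late and 21 early.

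**Figure D4:**
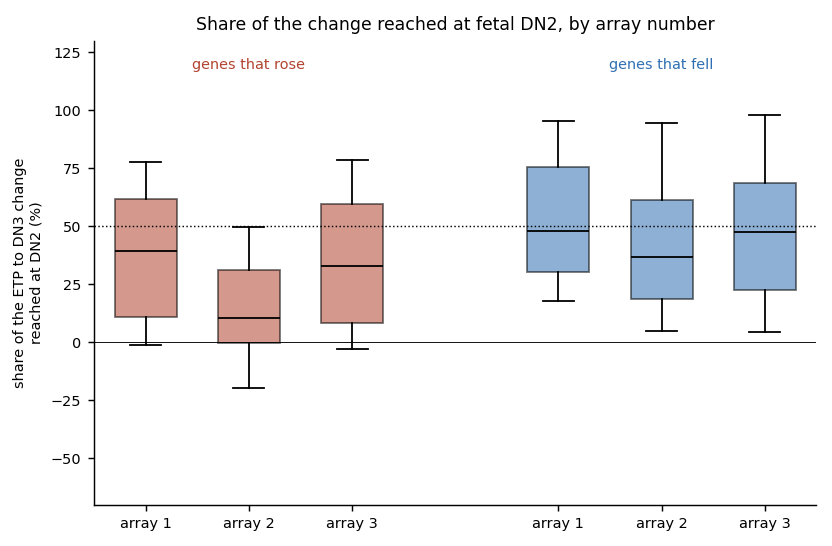
Share of the change from ETP to DN3 reached at DN2 (vertical axis, %) for genes that rose (red) and fell (blue), computed within each array number. Boxes show the quartiles and the median and whiskers the 10th and 90th percentiles over genes; the boxes of array 2 lie lowest.

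The last comparison asked which fetal changes differed from those of adult cells. The change from ETP to DN3 differed between the ages in 376 genes (3.03% of all tested), with the fetal change above the adult one in 212 and below it in 164. Of the genes that rose in the fetal course 110 differed from the adult course, and of those that fell 41. Adult DN3 array 3, which stood above both other adult DN3 arrays for *Cd44* and *Cd34* among others, entered the adult changes. *Xist*, the RNA that coats the silent X of females, was at -11.28 and -11.34 log2 in adult DN3 arrays 2 and 3. It was at 1.59 log2 in array 1, although all are labelled female, and between -1.29 and 0.23 log2 in the fetal arrays. The sex of the samples was not tested. A Y-linked gene was at 0.84, 0.01 and 1.09 log2 in the adult ETP arrays and at -0.01 log2 in adult DN3 array 1. It was at 1.29 and 1.15 log2 in adult DN3 arrays 2 and 3. The courses differed in 564 probe sets with these arrays, in 704 with both left out and in 402 and 493 with 1 of them left out.

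Some rises were seen in fetal cells while all adult stages lay near 0 log2. *Pdlim4* and *Fgfbp1* changed by 0.01 and 0.00 log2 in the adult course, and the differences were 8.91 ± 0.10 and 8.67 ± 0.11 log2. *Cd2*, *Dsc2*, *Adam19*, a metalloprotease, and *Nlrp6*, an innate sensor, had differences of 5.36 ± 0.18, 7.65 ± 0.27, 8.23 ± 1.16 and 7.59 ± 0.59 log2. *Adam19* stood at 5.16, 0.11 and 3.14 log2 in the fetal DN2 arrays, so that the arrays of this stage were far apart. *Igf2* differed by 4.89 ± 1.05 log2 (adjusted p = 0.0257), but 8 of 17 alternatives lost this call (adjusted p up to 0.182).

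Other differences took several forms, and not all of them were placed at a stage. *Adgrl4*, an adhesion receptor of endothelium, and *H2-Aa*, an MHC class II chain, fell by 8.67 and 7.53 log2 in adult cells and lay within -0.15 and 1.22 log2 in fetal ETP and DN3 arrays. *Lmo2* fell in both courses and less in the fetal one (-5.10 against -8.59 log2, difference 3.49 ± 0.33 log2). *Esam* fell by 6.06 ± 0.41 log2 in fetal cells and changed by -0.92 log2 in adult cells. In the opposite direction, *Cd3g*, *Gzma*, a granule protease, and *Khdc1a* stood at -9.36, -8.87 and -8.22 log2 in adult ETPs but at -1.99, 0.28 and 0.09 log2 in fetal ETPs, and their fetal minus adult changes were -7.39 ± 1.09, -7.96 ± 0.98 and -7.09 ± 0.72 log2. *Ppic*, a cyclophilin, fell in fetal cells and rose in adult cells (-2.88 and 3.20 log2, adjusted p of the difference 2.2e-05). *Ly6d* and *Scel* rose by 6.62 and 4.79 log2 in the adult course and did not pass in the fetal one (1.40 ± 0.57 and -0.05 ± 0.44 log2).

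**Figure D5:**
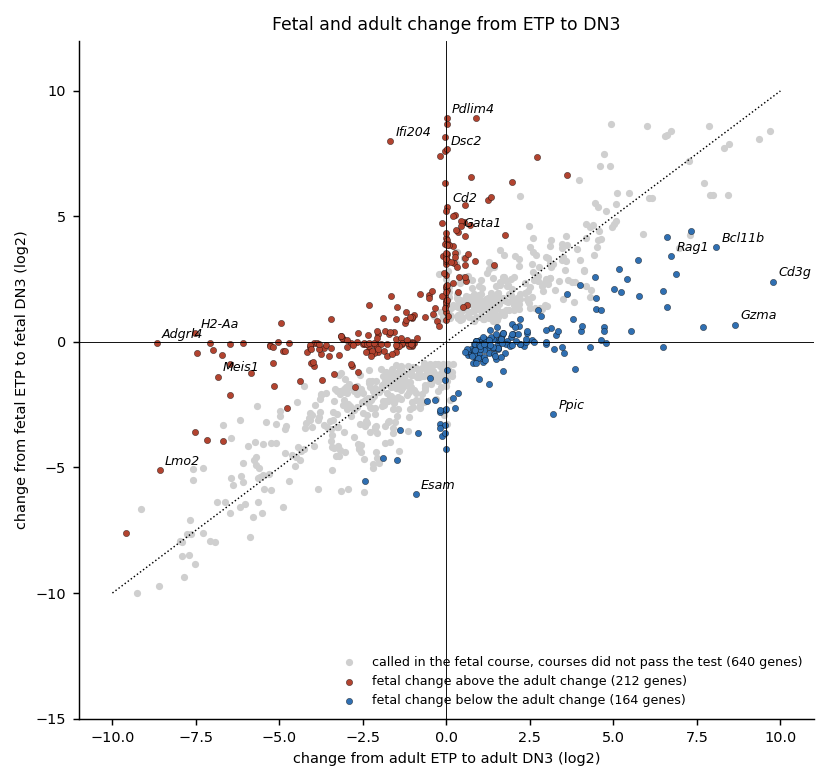
Change from ETP to DN3 in adult cells (horizontal, log2) and fetal cells (vertical, log2) of genes called in the fetal course or in the test of the difference between ages. Red and blue points (212 and 164 genes) passed that test, and the dotted line marks equal change.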

How the data were processed

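Gene expression of fetal and adult thymocytes was measured on 18 arrays in 6 groups of 3. GCRMA, named without a version in the submitters' processing notes, gave the log2 values that the authors deposited. Each probe set had its median over the 18 arrays subtracted, and a filter on low levels was not possible. The widest span of a probe set, 12.95, is read as log2, since the base is not given in the sources used here. Of 22626 probe sets, 20380 name 1 gene, 691 several and 1555 none, and 12393 genes were represented by 1 probe set, preferring names without a mark for cross-hybridization and then the largest SD. All columns could be assigned to a sample (0 columns not mapped).

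A linear model with 1 mean per group was fitted to the 18 arrays with limma (3.58.1, R 4.3.3), and p-values were adjusted over all 22626 probe sets. A call needed an adjusted p under 0.05 and a 1.8-fold difference, as in the study's methods for the fold. The difference of both steps and the difference between fetal and adult changes were tested as contrasts. The script was tested on simulated data with independent noise in each array, which do not hold the pairing of array numbers described next. Arrays of the same number deviated together in all 9 fetal pairs (r = 0.312 to 0.597, against a median of -0.245 for other numbers), over the limit of 0.1, so that the numbers pair the fetal arrays, and blocking on the number was among the alternatives. The others were array weights, centring of arrays, robust moderation, other thresholds, a one-way test, filters on probe sets and leaving out arrays. The one-way test compared only the fetal DN3 and fetal ETP arrays. It is not the study's analysis of variance, which followed a 1.8-fold filter between any 2 conditions. Promoters are from RefSeq (GRCm38.p6).

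Members and gene lists were chosen with earlier results of these data known. The text names genes by a rule, with a part of the genes it takes left out: the 10 largest rises and falls, up to 4 called genes of each list, the sorting genes, the largest differences from the adult course and the largest step differences. *Gata1*, *Meis1*, *F13a1* and the uncalled list members outside the rule, such as *Dntt*, were named after their values were seen. The 20 T cell receptor loci of a further list had no probe set of their own and were not analysed here. Some γ chain segments outside that list, such as *Trgv4*, did have one. Number of arrays limits the precision.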

Additional observations from a re-analysis of the deposited data

Results flagged for a closer look

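The fetal and the adult change from ETP to DN3 differed in limma for 44 genes named here, and each value below is the fetal change minus the adult change (log2). The difference was above 0 for *Ifi204* (9.69), *Pdlim4* (8.91), *Fgfbp1* (8.67), *Adgrl4* (8.61), *Adam19* (8.23), *Cntnap2* (8.05), *H2-Aa* (7.87), *Gpr83* (7.68), *Dsc2* (7.65), *Nlrp6* (7.59), *Serpinc1* (6.35), *Pparg* (5.83), *Meis1* (5.46), *Cd2* (5.36), *Plet1* (5.23), *Igf2* (4.89), *Klf4* (4.38), *Gata1* (4.01), *Flt3* (3.95), *Lmo2* (3.49), *Insl5* (3.13), *Fbln2* (3.05), *Gadd45g* (2.79), *Hmga2* (2.75), *Itgae* (2.53), *Csf1r* (1.99), *Grap2* (1.64) and *Ighm* (1.63). For *Adgrl4*, *H2-Aa*, *Meis1*, *Klf4*, *Flt3*, *Lmo2*, *Hmga2* and *Csf1r* such a value means a larger fall in adult cells.

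The difference was below 0 for *Gzma* (-7.96), *Cd3g* (-7.39), *Khdc1a* (-7.09), *Ppic* (-6.08), *Ly6d* (-5.22), *Esam* (-5.14), *Id3* (-5.12), *Cdkn1a* (-4.94), *Scel* (-4.84), *Bcl11b* (-4.30), *Rag1* (-3.32), *Cxcr6* (-2.68), *Ermap* (-2.60), *Epb41l4b* (-2.43), *Trgv4* (-2.39) and *Tcf12* (-1.75). Of the 44 differences, 34 passed under each of 17 alternatives. The other 10 lost the call under at least 1 of them: *Cxcr6* under 15, *Csf1r* 14, *Tcf12* 13, *Ermap* 11, *Itgae* 10, *Grap2* and *Igf2* 8, *Rag1* 2, and *Flt3* and *Trgv4* 1.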

How the results depend on the processing

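The main counts were 609 probe sets that rose and 624 that fell, 4 rises and 26 falls placed at the first step, 71 rises and 5 falls placed at the second, and 564 probe sets whose course differed from the adult one. With the replicate block in the 9 fetal arrays 971 fell, and 114 rises and 64 falls were placed late. With a replicate block within each age in all 18 arrays 10 falls were placed late. In the 9 fetal arrays alone 29 falls were placed late. With array weights, whose estimation stopped before it converged, 9 rises and 49 falls were placed early, 175 rises and 34 falls late, and 881 courses differed. Without adjustment 1007 fell, 33 rises and 95 falls were placed early, 270 rises and 96 falls late, and 2009 courses differed. The one-way test of the fetal DN3 and fetal ETP arrays called 981 falls before adjustment. Without probe sets marked for cross-hybridization 3 falls were placed late. Without those that span under 1 log2 8 rises were placed early and 10 falls late. The other values lay within 1.5 times the main counts.

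With single arrays left out, 502 to 618 probe sets rose and 463 to 662 fell. Leaving out adult DN3 arrays for these counts was chosen after seeing the data. Early rises numbered 2 to 6, late rises 43 to 84, early falls 18 to 35 and late falls 0 to 10, and 382 to 781 courses differed, the most without adult ETP array 1. The late falls were 0 without fetal DN2 array 2, 2 without fetal DN2 array 3 or fetal ETP array 1, 3 without fetal DN3 array 1 or 3, and 10 without fetal DN2 array 1. The early rises were 2 without fetal DN2 array 1 or 3. The late rises were 43 without fetal DN2 array 2. With both adult DN3 arrays 2 and 3 left out, an alternative chosen after seeing the data in which the lone array is assumed to vary like the other groups, 704 courses differed. Of 103 called genes named here, 77 kept their call in every alternative run for them and none changed direction, and 92 kept it with each of 6 arrays left out. Of 21 named genes not called, 7 were called in some alternative. The blocked fit of the fetal arrays ended the call of 3 named genes. The cause of these shifts was not tested. Centred values hold no level, so whether a low group was above background was not readable.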

Other observations

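Some called genes outside the lists, chosen after their values were seen, belong to metabolism, coagulation and matrix. *Pparg*, a nuclear receptor of fat cells and macrophages, stood at -0.17, 0.06 and -0.27 log2 in fetal ETPs, at 2.20, 1.49 and 1.64 log2 in DN2 cells and at 6.38, 6.64 and 6.26 log2 in DN3 cells. It rose by 6.55 ± 0.22 log2 (adjusted p = 6.2e-10), with the larger part at the second step, while the adult change was 0.72 log2. *Serpinc1*, the liver protein antithrombin, rose by 6.31 ± 0.21 log2 in the fetal course and changed by -0.04 log2 in the adult one. *Fbln2*, a matrix protein, stood between -0.05 and -0.01 log2 in fetal ETPs and between 6.19 and 7.17 log2 in fetal DN3 cells, with 2.29% of the change reached at DN2.

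*Ctla4*, an inhibitory receptor of activated T cells, went from -6.64, -3.49 and -4.17 log2 in fetal ETPs to 2.92, 3.00 and 2.92 log2 in fetal DN3 cells. It rose by 7.71 ± 0.75 log2 in fetal cells and by 8.32 log2 in adult cells, a difference of -0.61 ± 1.06 log2 that did not pass (adjusted p = 0.736).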
